A study of Mus musculus with 12 samples.

Results

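The genes described here are 7 receptors of the signalling lymphocytic activation molecule (SLAM) family (Slamf1, Slamf6, Slamf7, Ly9, Cd84, Cd48 and Cd244) and Sh2d1a, which encodes the adaptor SAP. They were chosen by name, and are 8 of the 25793 genes in the deposited count table. All 8 were present in both deposited tables. Of these, 7 had at least 1 count, and 6 passed the filter on low counts that left 7542 genes for testing. Ly9 had too few counts for the filter, and Cd244 had none.

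The libraries came from OT-II T cells, CD4+ T cells that carry a transgenic receptor for an ovalbumin peptide, in 2 genotypes on the C57BL/6 strain: 6 libraries were Pdcd1+/+ (wild type, WT) and 6 were Pdcd1KI/KI (KI). In both groups the donor cells had been transduced to carry GFP and were transferred into B6 hosts along with dsRed-expressing MD4 B cells, which recognise the egg protein HEL. The hosts received HEL-OVA with LPS and alum under the skin, and GFP+ CD4+ cells high in the chemokine receptor CXCR5 were sorted from lymph nodes on day 5. The stated comparison is KI against WT follicular helper T (Tfh) cells, in a study of how PD-1, the product of Pdcd1, acts on their position and function. The hosts kept their own lymphocytes, the labels do not say what the KI allele changes, and they do not give the age of the animals or say whether cells from several hosts were pooled. Each title also carries 2 numbers, the first 1 or 2 and the second 1 to 3, whose meaning the labels do not give. There were 3 libraries for each genotype and first number, and a library is named here by genotype and numbers, as in WT 1-2. Because nothing ties the libraries to separate animals, p-values measure the spread between libraries, which may be technical.

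SLAM family receptors are cell surface proteins of lymphocytes, and most of them bind the same receptor on a neighbouring cell. Most have a cytoplasmic tail with switch motifs built around a tyrosine, which dock SAP or the related adaptor EAT-2. SAP in turn brings in the kinase FYN. In T cells SAP is needed for long-lasting contact with B cells and for germinal centre help, and its human counterpart is mutated in X-linked lymphoproliferative disease.

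In receptors that dock SAP, the part that meets it is a short stretch of the tail. Coding stretches that fit its known pattern are shown here for every receptor, whether or not that receptor docks SAP. They were searched in the longest complete coding sequence of each gene in the GENCODE vM1 mouse transcripts, by the immunoreceptor tyrosine-based switch motif, read in frame on the coding strand. Each line gives 18 coding bases, 5′ to 3′, with the codon of the tyrosine in capitals, and the sites of a gene are numbered from the 5′ end.
Slamf1 site 1: actattTATgcccaagta
Slamf1 site 2: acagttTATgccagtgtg
Slamf6 site 1: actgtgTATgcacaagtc
Slamf6 site 2: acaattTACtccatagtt
Cd84 site 1: acagtaTATgctgtagtt
Cd84 site 2: accattTATtcctcagtg
Ly9 site 1: actccaTATgataaagtg
Ly9 site 2: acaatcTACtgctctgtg
Slamf7 site 1: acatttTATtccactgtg
Cd244 site 1: acaataTATgaatatgtc
Cd244 site 2: accatgTACtctatgata
Cd244 site 3: acagtaTATtcagtagtc
Cd244 site 4: accgtgTACgaggaggtt
Cd48 site 1: acctacTACatgagagtg

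Slamf1, Slamf6, Cd84 and Ly9 had 2 matches each, Slamf7 had 1 and Cd244 had 4. In Slamf6, of 351 codons, the sites spanned codons 293 to 298 and 317 to 322. In Slamf1, of 343 codons, the second site spanned codons 333 to 338, near the end. Cd48, which has no cytoplasmic tail and is held to the membrane by a lipid anchor, had 1 match at codons 105 to 110 of 240, far from the end of the coding sequence, and Sh2d1a had 0. Of 21370 coding sequences, 7.73% held at least 1 match and 0.585% held at least 2. A match describes the letters only and is no measure of docking.

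Total gene counts ran from 717506 to 1801504 per library (median 1411038), and 10331 to 11115 genes were detected in a library. Levels of 1 gene were compared between libraries as CPM, counts scaled to a common library total after TMM adjustment. Pdcd1, the gene the genotypes are named for, had 163 to 515 CPM in WT and 21.1 to 128 CPM in KI. KI was lower without overlap, as was so for 0.146% of tested genes. The log2 fold change was -2.05 (SE 0.42, edgeR adjusted p 0.231, or 7.65e-06 when the first number is a block). The labels give no expected direction, so these values show a difference between the groups and not what the allele does. Pdcd1 also differed between first numbers (-1.56, SE 0.22). The T cell markers (8 genes) summed to 5105 to 6912 CPM. The library total of 12 B cell markers was 115 to 345 CPM, with Pax5 at 0 counts in all 12 libraries, and that of 12 myeloid and dendritic markers was 40.7 to 294 CPM. In bulk samples such as these, fewer cells of a type and less RNA per cell cannot be told apart.

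Per transcript length, SAP was the most abundant transcript of the family and Slamf6 the most abundant receptor, in both genotypes. Levels of different genes were compared per transcript length, as the FPKM values computed by the authors. By mean CPM, without division by length, Slamf6 (667) was above Sh2d1a (438), Cd84 (116) above Cd48 (75.5) and Slamf7 (33.4) above Slamf1 (30.8). The order given here therefore depends on that division. Sh2d1a had 414 ± 129 FPKM (SD, n = 12), and exceeded Slamf6 in 12 of 12 libraries. Slamf6, a receptor that binds itself across the T cell and B cell contact, had 199 ± 80.0 FPKM (SD, n = 12). It was above the next receptor, Cd48, in 12 of 12 libraries. Cd48, the membrane-anchored ligand of CD2 and CD244, had 50.3 ± 39.4 FPKM (SD, n = 12), and Cd84, a self-binding receptor that holds T and B cells together, had 27.0 ± 16.3 FPKM (SD, n = 12). These neighbours in the order lay within their spread, with Cd48 the higher in 9 of 12 libraries. Cd84 exceeded Slamf1, the next in the order, in 11 of 12.

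Below them the order was less firm. Slamf1, the founding member of the family, had 8.63 ± 5.08 FPKM (SD, n = 12), and Slamf7, best known from natural killer and plasma cells, had 6.11 ± 6.44 FPKM (SD, n = 12). Slamf1 was the higher of this pair in 9 of 12 libraries, so they did not differ beyond their spread. Ly9, a self-binding receptor with a long extracellular part, had 1.52 ± 1.72 FPKM (SD, n = 12) and was below Slamf7 in 9 of 12 libraries. Cd244, a receptor for CD48 on natural killer cells, was listed at 0 in every library.

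**Figure D1:**
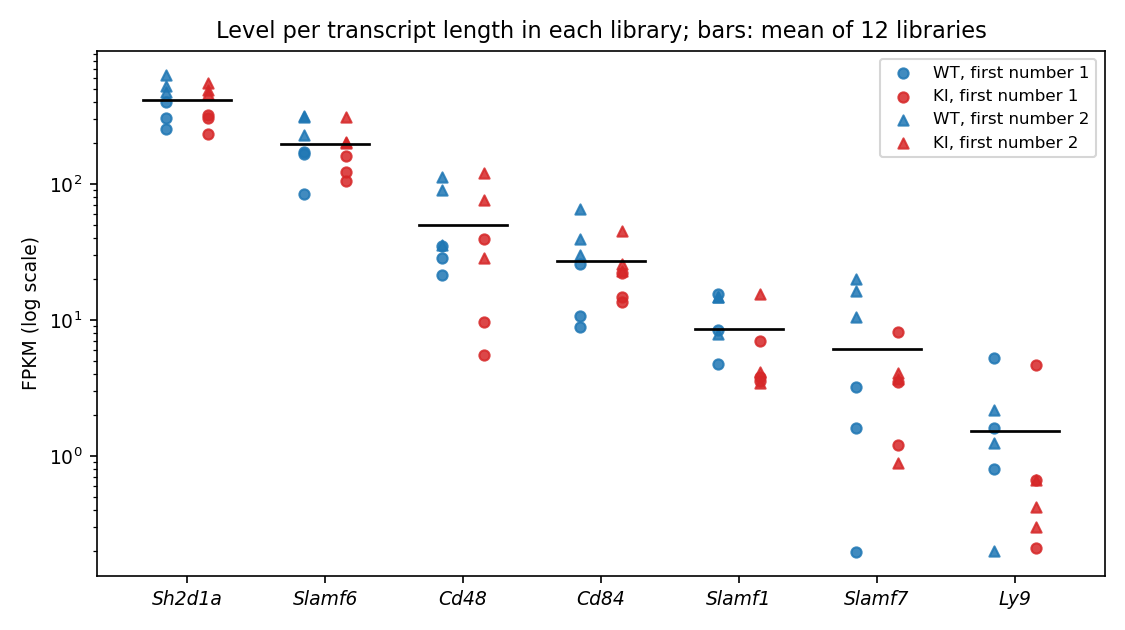
FPKM (log scale) of the 7 genes with counts, 1 point per library, with WT in blue, KI in red, circles for first number 1, triangles for first number 2, and bars for the mean of 12 libraries. Sh2d1a (mean 414 FPKM) and Slamf6 (199 FPKM) stand above the rest, and Slamf7 and Ly9 spread over the widest range on the log scale; Cd244, listed at 0, is not drawn.

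The order of the 8 mean FPKM values was the same in WT, in KI, at first number 1 and at first number 2. It did not hold in WT when split by first number (n = 3 each). There Slamf7 (15.6 FPKM) was above Slamf1 (12.5 FPKM) at first number 2, and Ly9 (2.57 FPKM) above Slamf7 (1.66 FPKM) at first number 1. Slamf6 made up 69.8% ± 5.84 (SD, n = 12) of the summed FPKM of the 7 receptors, and its lowest share in a library was 60.3%. The ratio of Sh2d1a to the summed receptors in FPKM, which also depends on the division by length, was 1.51 ± 0.51 in WT and 1.60 ± 0.40 in KI (SD, n = 6 each). It ranged from 0.992 in KI 2-2 to 2.44 in WT 1-3, and the difference between genotypes was smaller than the spread between libraries.

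The 7 receptor genes lie side by side in a stretch of 389.8 kb on chromosome 1, from 173489324 to 173879083, in the order Cd244, Ly9, Slamf7, Cd48, Slamf1, Cd84, Slamf6 (GENCODE vM1 on NCBIM37, the assembly also called mm9, which the submitters' processing notes name). All are annotated as protein-coding, and none of the 8 genes overlapped another annotated gene. Slamf6 (173847646 to 173879083, plus strand) and Cd244 (173489324 to 173515449, plus strand) are at opposite ends. Sh2d1a is on chromosome X, from 39855630 to 39876874 on the plus strand. Pdcd1 is on chromosome 1 as well, 77.5 Mb away from the receptors. Between the receptors the annotation holds 4 other genes, of which 0 were tested. Within 500 kb on either side, 19 genes were tested.

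**Figure D2:**
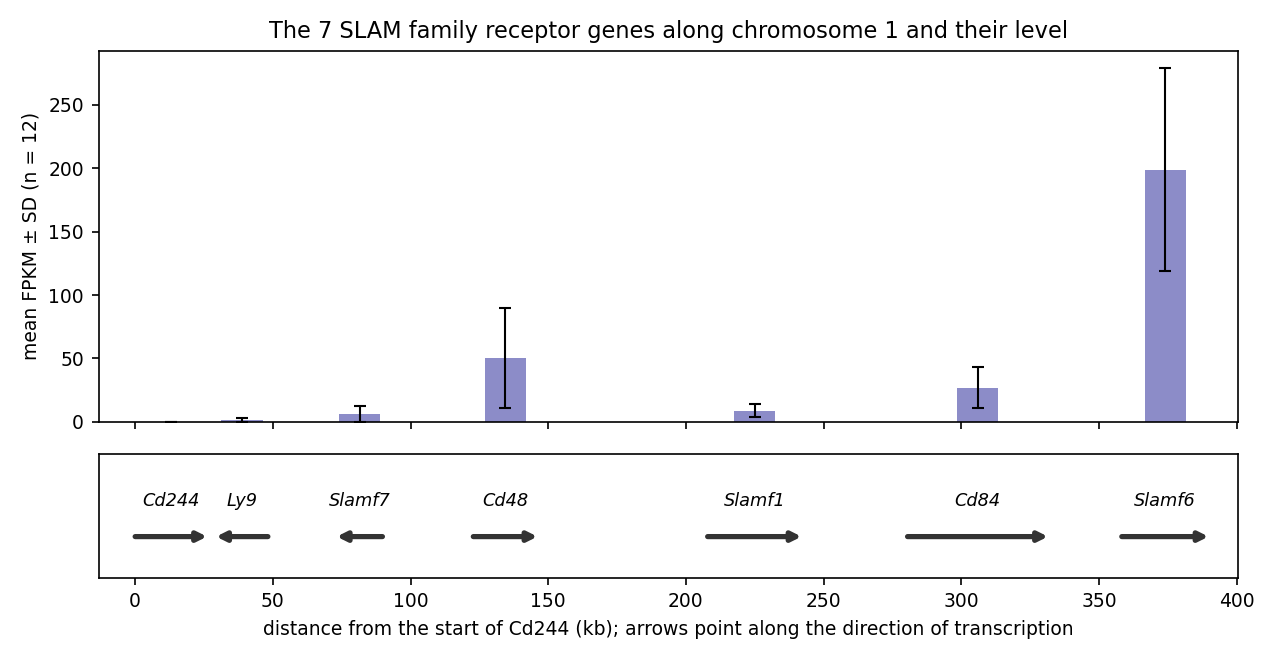
Map of the 7 receptor genes on chromosome 1, with distance in kb from the start of Cd244, arrows along the direction of transcription, and bars above for mean FPKM with SD over 12 libraries. Levels differ widely between neighbours, from 0 for Cd244 to 199 FPKM for Slamf6.

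None of the 6 tested members passed the threshold between KI and WT. An edgeR quasi-likelihood test over the 7542 genes called 0 of 6 members, against 0.0265% of all tested genes (2 genes), at a Benjamini-Hochberg adjusted p under 0.05. DESeq2 also called 0 members, against 0.146% of all genes, and edgeR with the first number as a block called 0, against 0.0530%. At an unadjusted p under 0.05, 1 member (Slamf1) fell below, against 5.40% of all genes. The median log2 fold change of the 6 members was -0.25, beside 0.0154 over all tested genes.

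Sh2d1a had a lowest, median and highest value of 293, 447 and 631 CPM in WT, and of 256, 384 and 624 CPM in KI. The ranges of the genotypes overlapped almost wholly. The log2 fold change was -0.12 (SE 0.24), with a 95% interval from -0.62 to 0.38 and an edgeR adjusted p of 0.969.

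Slamf6 likewise had 388, 688 and 998 CPM as the lowest, median and highest WT values, and 377, 578 and 917 CPM in KI. High and low libraries occurred in both genotypes. Its log2 fold change was -0.21 (SE 0.26), with a 95% interval from -0.75 to 0.34 (edgeR adjusted p 0.955). For these 2 genes the interval therefore did not reach a halving or a doubling, which is a change of 1 on the log2 scale.

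Slamf1 had the smallest p of the members. At first number 1, the WT libraries had 28.9, 61.6 and 22.9 CPM and the KI libraries 21.9, 14.0 and 13.5 CPM. At first number 2, the values were 27.2, 49.9 and 50.6 CPM in WT and 18.4, 49.0 and 12.3 CPM in KI. At first number 1 every KI library was lower than every WT library, as was so for 7.81% of tested genes, and at first number 2 the library KI 2-2 was as high as WT. The log2 fold change was -0.89 (SE 0.41), with an unadjusted p of 0.0444 and an edgeR adjusted p of 0.917, and 5 of 6 KI libraries were below the lowest WT library. With each library left out in turn, the log2 fold change ran from -1.32 (without KI 2-2, edgeR adjusted p 0.471) to -0.74. A two-sided exact permutation test on this gene alone gave p = 0.0325, and this p is not adjusted for the 6 members looked at.

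B cells express Slamf1 too, so the B cell markers are given beside it. Their sum had a lowest, median and highest value of 166, 223 and 345 CPM in WT and of 115, 214 and 244 CPM in KI. Of the 12 markers 6 were tested and 0 were called between genotypes, with a median log2 fold change of -1.29 and 5 of 6 negative. The smallest p-values were those of Ms4a1 (-2.04, SE 0.51, edgeR adjusted p 0.487) and Cd79b (-1.36, SE 0.45, edgeR adjusted p 0.916), and Cd22, the most abundant of the 6, had a positive value (0.55, SE 0.32, edgeR adjusted p 0.937). The part of B cell transcripts in the Slamf1 value was not tested.

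For Cd84 the lowest, median and highest values were 41.8, 114 and 268 CPM in WT and 56.4, 98.9 and 173 CPM in KI. The KI values lay inside the WT range. The log2 fold change was -0.29 (SE 0.37, edgeR adjusted p 0.955), with a 95% interval from -1.07 to 0.49, or from -0.75 to 0.32 when the first number is a block. Cd48 had 42.3, 51.5 and 158 CPM in WT and 9.77, 46.8 and 162 CPM in KI. Both the lowest and the highest library were KI, and the log2 fold change was -0.21 (SE 0.54, edgeR adjusted p 0.973), with a 95% interval from -1.33 to 0.92. With offsets for GC content, described below for the first number, the values for Sh2d1a and Cd84 changed sign to 0.02 and 0.10, and 0 members were called, against 0.0140% of genes in that fit.

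**Figure D3:**
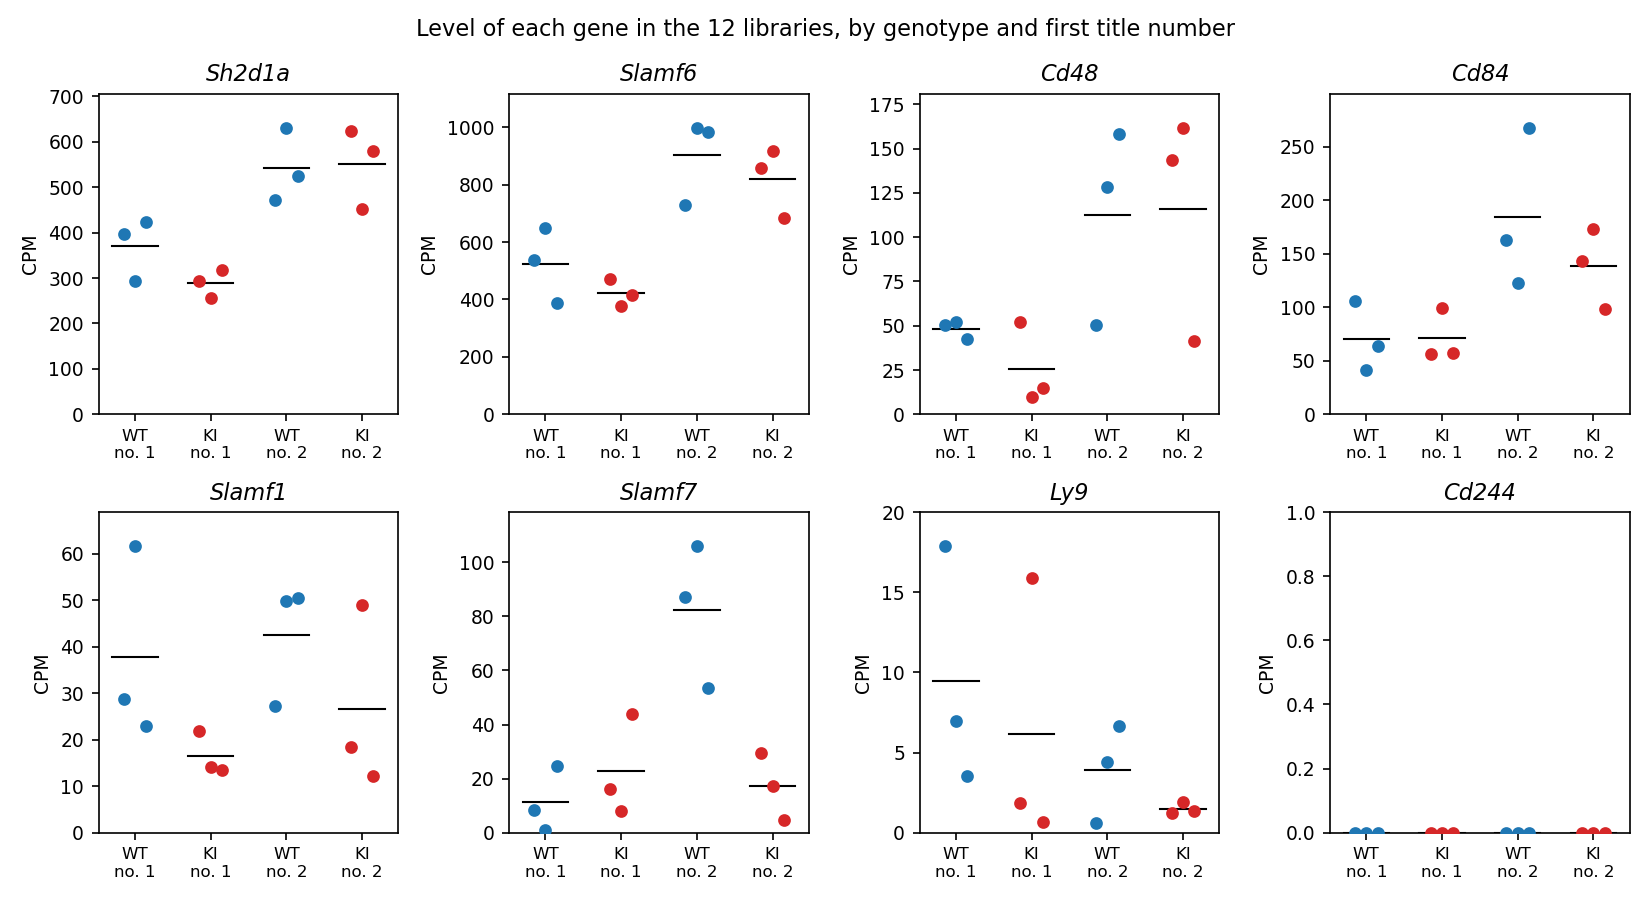
CPM of each of the 8 genes in the 12 libraries, grouped by genotype and first title number (no.), with WT in blue, KI in red and bars for the mean of 3 libraries; each panel has its own scale. Sh2d1a and Slamf6 differ by first number more than by genotype, and Slamf7 is high in the 3 WT libraries with first number 2.

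Slamf7 varied more than any other tested member relative to its mean. The WT libraries had 8.25, 1.16 and 24.7 CPM at first number 1 and 87.2, 106 and 53.5 CPM at first number 2. The KI libraries had 16.3, 7.94 and 44.0 CPM at first number 1 and 29.5, 17.3 and 4.77 CPM at first number 2. The WT libraries with first number 2 were thus the 3 highest of the 12. Over all libraries the log2 fold change between KI and WT was -1.26 (SE 0.67, edgeR adjusted p 0.919), and -0.73 (SE 0.68, edgeR adjusted p 0.803) when the first number is a block.

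The genotype difference of Slamf7 ran in opposite directions at the 2 first numbers, at 1.06 (SE 0.92) at first number 1 and -2.31 (SE 0.52) at first number 2, where KI lay below WT without overlap, as did 5.83% of tested genes. Neither passed the threshold (edgeR adjusted p 0.773 and 0.307). The test of the difference itself, the interaction of genotype and first number, gave -3.40 (SE 1.05), with a 95% interval from -5.57 to -1.23, an unadjusted p of 0.00364 and an edgeR adjusted p of 0.363. For the interaction edgeR called 0 of 6 members and 0.00% of all genes, while 7.21% of genes had an unadjusted p under 0.05. Slamf7 passed the threshold when no filter on low counts was used (-3.50, edgeR adjusted p 0.00286), a fit in which 0.967% of genes did so. The other 5 members had edgeR adjusted p-values from 0.860 to 0.957 for the interaction.

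Slamf7 is also a gene of natural killer and cytotoxic cells, whose markers were measured alongside it. Nkg7 and Eomes weigh most in the marker sum, with 3443 and 1037 counts over 12 libraries, where every other marker had 607 or fewer. The 12 markers summed to 86.0 to 291 CPM in WT and 84.5 to 132 CPM in KI at first number 1. At first number 2 they summed to 598 to 744 CPM in WT and 229 to 505 CPM in KI. The WT libraries with first number 2 were thus highest for both the marker sum and Slamf7, whereas within KI the marker sum was higher at first number 2 and the mean of Slamf7 was not (22.7 CPM at first number 1, 17.2 CPM at first number 2). Of the 12 markers 5 were tested, and 0 were called between genotypes. Between first numbers 4 were called higher, beside 8.47% of all genes, namely Nkg7 (2.09, SE 0.27), Eomes (2.11, SE 0.56), Klrb1c (1.78, SE 0.52) and Cd8b1 (1.57, SE 0.49). Nkg7 and Eomes, 2 of them, were still called with offsets for GC content. Ncr1, which defines natural killer cells, had 0 counts in all 12 libraries, and Gzma, Klrd1 and Klrk1 had 0 at first number 1. At first number 2 the highest values of Gzma, Klrd1 and Klrk1 were 8.16, 3.71 and 9.67 CPM. Prf1, Cd8a and Gzmb, also not tested, had 77, 60 and 34 counts over 12 libraries. The part of such cells or transcripts in the Slamf7 values was not tested.

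Ly9 did not pass the filter on low counts. Its counts were 26, 6, 2, 1, 8 and 9 in the WT libraries and 3, 26, 1, 1, 4 and 2 in the KI libraries, in the order of the title numbers. In each genotype 1 library stood far above the rest, WT 1-1 with 17.9 CPM and KI 1-2 with 15.9 CPM. On the log2(CPM + 1) scale KI minus WT was -0.87, with a two-sided exact permutation p of 0.234 (the smallest this test can give is 0.00216). With each library left out in turn, the difference ran from -1.34 to -0.54 and the exact permutation p from 0.0325 to 0.437. The smallest p was that without KI 1-2. First number 2 minus 1 was -0.96 (exact permutation p 0.177), and adjusted over these 2 comparisons both p-values were 0.234. In the edgeR fit with no filter Ly9 had -0.75 (SE 0.92, edgeR adjusted p 0.829) between genotypes and -1.63 (SE 0.93, edgeR adjusted p 0.304) between first numbers.

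Cd244 had 0 counts in all 12 libraries. A count of 0 allows up to 3 counts, which is 1.44 CPM in the deepest library and 5.29 CPM in the shallowest, and 0.184 CPM over the counts of all libraries together. This limit covers counting error only, since amplified reads are not independent molecules. CD48, the ligand of this receptor, had counts in all 12 libraries.

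The 2 first numbers separated SAP and Slamf6 completely. An edgeR fit with genotype in the model called 4 of 6 members higher at first number 2 and 0 lower, against 8.47% of all tested genes higher and 16.0% called in either direction. The median log2 fold change of the 6 members was 1.02, beside 0.0088 over all tested genes. This contrast moved with the GC content of the transcripts across the whole data set, and 0 of 6 members were called once that was modelled, as given below.

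Sh2d1a had 397, 293 and 423 CPM in the WT libraries with first number 1 and 472, 631 and 524 CPM in those with first number 2. In KI it had 292, 256 and 317 CPM at first number 1 and 624, 452 and 579 CPM at first number 2. All 6 libraries with first number 2 were above all 6 with first number 1, as was so for 2.97% of tested genes. The log2 fold change was 0.74 (SE 0.16, edgeR adjusted p 0.00257), and the two-sided exact permutation p was 0.00216, the smallest this test can give.

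Slamf6 in WT had 539, 647 and 388 CPM at first number 1 and 729, 998 and 985 CPM at first number 2. The KI libraries had 473, 377 and 415 CPM, then 857, 917 and 684 CPM. Here too the first numbers did not overlap, and both genes were also apart within each genotype, as were 5.37% of tested genes. Slamf6 was higher at first number 2 by 0.87 on the log2 scale (SE 0.16, edgeR adjusted p 0.000791).

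Cd84 in WT had 106, 41.8 and 63.5 CPM at first number 1 and 163, 123 and 268 CPM at first number 2. In KI the same gene had 56.4, 99.5 and 57.5 CPM, then 144, 173 and 98.2 CPM. The first numbers overlapped through WT 1-1 and KI 1-2 on one side and KI 2-3 on the other. Its log2 fold change was 1.16 (SE 0.26, edgeR adjusted p 0.00429).

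Cd48 in WT had 50.2, 52.3 and 42.3 CPM at first number 1 and 50.7, 129 and 158 CPM at first number 2. The KI values were 52.0, 9.77 and 14.9 CPM, then 144, 162 and 41.6 CPM. In each genotype 1 library with first number 2 lay within the range of those with first number 1. With a log2 fold change of 1.69 (SE 0.40, edgeR adjusted p 0.00595) it nevertheless had the largest estimate of the 4 called members. Slamf1 (0.43, SE 0.39, edgeR adjusted p 0.492) and Slamf7 (1.20, SE 0.68, edgeR adjusted p 0.245) did not pass the threshold.

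Within WT alone 1 member was called, Slamf7 (2.95, SE 0.66, edgeR adjusted p 0.0244), against 5.01% of genes there. Within KI alone 3 were called, namely Sh2d1a, Slamf6 and Cd48, against 4.66% of genes. Sh2d1a differed by 0.52 (SE 0.21) in WT and by 0.94 (SE 0.22) in KI. For Slamf6 the same values were 0.75 (SE 0.22) and 0.96 (SE 0.22). Leaving out each of the 12 libraries in turn left 4 members called every time. In these fits the genes called in either direction went from 752 of 7702 (without KI 2-2) to 1252 of 7759 (without KI 1-1).

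**Figure D4:**
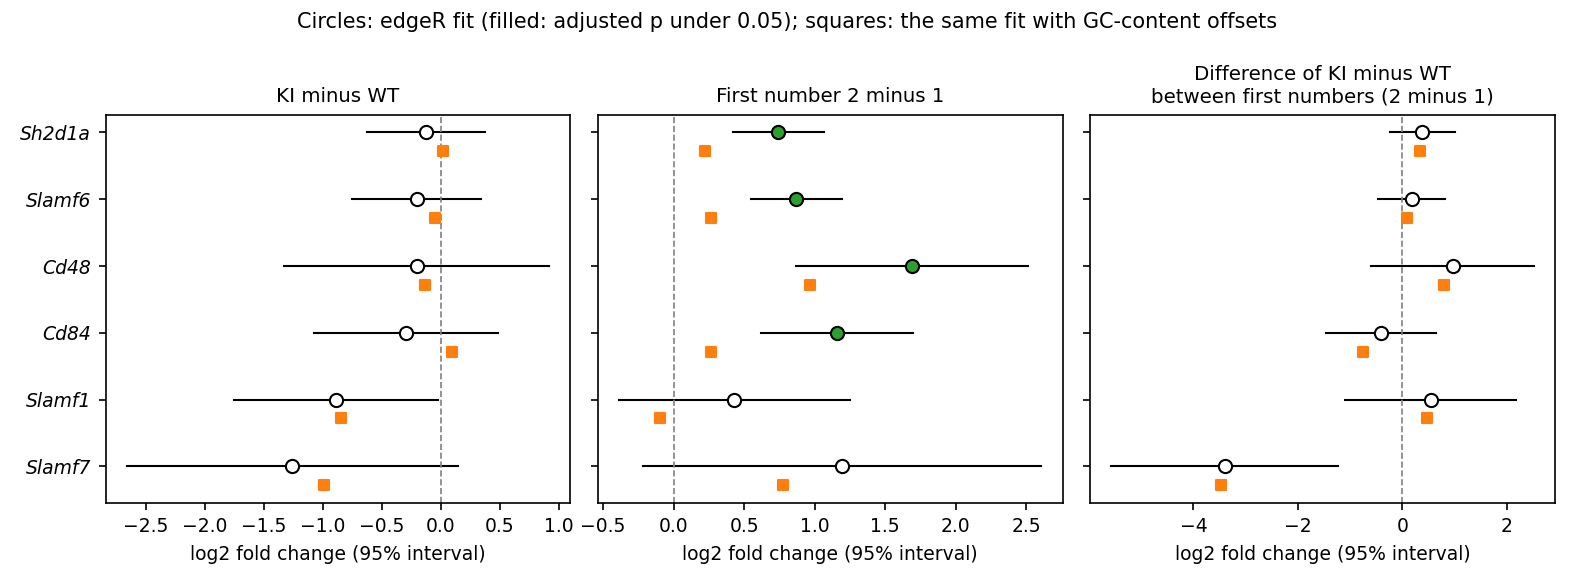
log2 fold changes of the 6 tested members for KI minus WT, first number 2 minus 1, and the difference of KI minus WT between first numbers, with circles for the edgeR fit, lines for 95% intervals, filled circles for an adjusted p under 0.05, and orange squares for the same fit with offsets for GC content. The 4 filled circles are Sh2d1a, Slamf6, Cd48 and Cd84 in the middle panel, and their squares lie nearer to 0.

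The difference between first numbers followed the GC content of the transcripts over all genes. Among the 7120 tested genes with an annotated transcript (94.4%), split into 5 equal bins of GC content, the median log2 fold change went from 0.70 in the lowest bin (32.86% to 44.75%) through 0.32, 0.017 and -0.26 to -0.53 in the highest bin. In the lowest bin 25.9% of genes were called higher at first number 2, and in the highest bin 0.421%. Sh2d1a (44.28% GC), Slamf6 (43.51%), Cd84 (39.25%) and Cd48 (42.15%) all belonged to the lowest bin. Slamf1 (44.93%) and Slamf7 (45.75%) belonged to the next.

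When each library was given an offset fitted to GC content, an alternative chosen after seeing the data, edgeR called 0 of 6 members between first numbers. In that fit 2.29% of genes were called higher and 5.52% in either direction. The log2 fold change of Sh2d1a became 0.22 (SE 0.16, edgeR adjusted p 0.490), that of Slamf6 0.27 (SE 0.15, edgeR adjusted p 0.340) and that of Cd84 0.26 (SE 0.24, edgeR adjusted p 0.593). Cd48 kept the largest estimate, 0.96 (SE 0.35, edgeR adjusted p 0.106). Slamf1 changed sign to -0.10. What sets the first numbers apart is not stated in the labels, and its part cannot be told apart from that of GC content.

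**Figure D5:**
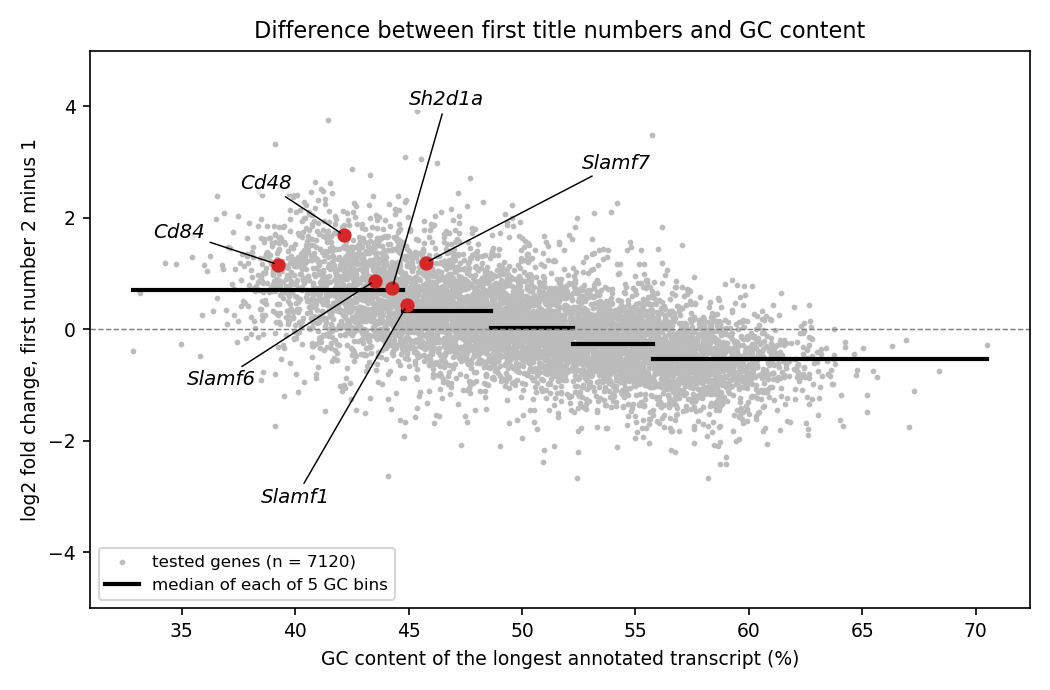
log2 fold change between first number 2 and first number 1 (vertical) against GC content of the longest annotated transcript in percent (horizontal), for 7120 tested genes in grey, with black bars for the median of each of 5 GC bins and red points for the 6 tested members. The medians run from 0.70 to -0.53, and the members lie in the 2 bins with the lowest GC content.

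The genes whose pattern over the 12 libraries was most like that of Sh2d1a, among 3780 genes with a mean of at least 50 counts, were Fyn, Prkacb and Jak1. The measure was the root mean square difference of log2 CPM after centring each gene, and it was 0.18 for Fyn, 0.18 for Prkacb and 0.21 for Jak1. Fyn, the kinase that SAP brings to the receptors, had 677 ± 71.1 CPM at first number 1 and 1052 ± 165 CPM at first number 2 (SD, n = 6 each). Mean CPM at first numbers 1 and 2 was 122 and 227 for Prkacb, and 514 and 867 for Jak1. The difference between first numbers was left in the measure, and likeness apart from it was not tested. Slamf6 was the 67th gene in the order of likeness to Sh2d1a. For Slamf6 the nearest were Tbc1d4 (0.18), Jak1 (0.21) and Cugbp2 (0.21), and Sh2d1a was the 81st.

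Genes that act with the receptors were read from a list of 22 signalling partners, of which 17 were tested. Between KI and WT 0 were called, with a median log2 fold change of -0.02, and the smallest p-values were those of Plcg1 (1.01, edgeR adjusted p 0.919) and Rasa1 (-0.97, edgeR adjusted p 0.919). Plcg1 encodes a phospholipase of T cell receptor signalling and Rasa1 a brake on RAS. EAT-2 and its relative, encoded by Sh2d1b1 and Sh2d1b2, had 0 counts, as did the receptors Slamf8 and Slamf9.

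Between first numbers 3 partners were called higher and 3 lower, beside 8.47% higher and 7.54% lower of all genes, and the list's median was 0.05. Fyn (0.63, SE 0.14), Ptpn11 (0.56, SE 0.17), which encodes the phosphatase SHP-2, and Rasa1 (2.07, SE 0.31) were higher at first number 2. Ptpn6, which encodes the phosphatase SHP-1 (-0.81, SE 0.15), Csk, a kinase that restrains FYN and LCK (-0.75, SE 0.15), and the adaptor gene Dok2 (-2.05, SE 0.27) were lower. With offsets for GC content Ptpn11, Rasa1, Ptpn6 and Dok2 were still called, at 0.64, 1.50, -0.52 and -1.58, while Fyn (0.48, edgeR adjusted p 0.0593) and Csk (-0.17, edgeR adjusted p 0.533) were not.

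A second list held 18 genes of T cell and B cell contact, all tested, such as those of integrins and of costimulatory receptors. Between genotypes 0 were called, with a median of 0.02, and the smallest p-values were those of Cd6 (0.41, edgeR adjusted p 0.919) and Fermt3 (0.46, edgeR adjusted p 0.937). At first number 2 the costimulatory receptor genes Cd28 (0.50, SE 0.15) and Icos (0.76, SE 0.21) and the integrin-activating GTPase genes Rap1a (1.35, SE 0.20) and Rap1b (1.46, SE 0.21) were higher. Rapgef1 (-0.71, SE 0.23), which activates RAP1, and the integrin linker gene Tln1 (-0.69, SE 0.17) were lower. With offsets for GC content 0 of the 18 were called, and Cd28 changed sign to -0.28.

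Of 11 cytokine and transcription factor genes linked to SAP, 9 were tested and 0 were called between genotypes. Il4, the cytokine of Tfh help that depends on SAP, did not pass the filter, with 0 to 13 counts in a library. The smallest genotype p-values were those of Nfatc1 (0.46, unadjusted p 0.0183, edgeR adjusted p 0.916) and Nfkb1 (0.35, edgeR adjusted p 0.937). Between first numbers Nfkb1 was called higher (0.60, SE 0.18) and Batf lower (-1.12, SE 0.28). With offsets for GC content Nfkb1 was still called, and Batf (-0.73, edgeR adjusted p 0.119) was not.

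Of the 10 Tfh markers, all tested, 0 were called between genotypes in the fit without a covariate. With the first number as a block 1 was called lower in KI, Pdcd1 (-2.24, SE 0.22, edgeR adjusted p 7.65e-06), against 0.0530% of all genes in either direction. Between first numbers 3 were called higher, Sh2d1a itself, Icos and Btla (1.24, SE 0.26), which encodes an inhibitory receptor of T and B cells. Another 3 were called lower, Cxcr5 (-0.72, SE 0.15), Pdcd1 (-1.56, SE 0.22) and Tox2 (-1.30, SE 0.37). Cxcr5 and Pdcd1 were still called with offsets for GC content. Among the 8 T cell markers Cd28 was called higher and Cd247, the zeta chain of the T cell receptor complex, lower (-1.24, SE 0.14), and of 2 tested plasma cell markers Xbp1 was called lower (-0.83, SE 0.28). Cd247 was still called with these offsets, and Cd28 and Xbp1 were not. Cst3, the 1 myeloid marker tested, was not called between first numbers (0.07, SE 0.29) or genotypes (-0.27, SE 0.30).

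Around the receptors on chromosome 1, 19 genes within 500 kb were tested. Between first numbers 16 of them had a negative value, beside 3742 of 7542 over all genes, and their median was -0.32. The test called 0 higher and 2 lower, Usf1 (-1.69, edgeR adjusted p 0.0109) and Ppox (-1.82, edgeR adjusted p 0.0191), beside 8.47% higher and 7.54% lower of all genes. In the fit with offsets for GC content 0 of the 19 were called, against 5.52% of all genes in either direction. In that fit 15 of the 19 were still negative, with a median of -0.33. Usf1 had -1.34 (edgeR adjusted p 0.0707) and Ppox -1.42 (edgeR adjusted p 0.104). Between genotypes 0 were called, and the median was 0.03.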

How the data were processed

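Polyadenylated RNA of 12 libraries from small pools of sorted cells had been amplified by a modified single-cell protocol, per the labels' protocols. The authors deposited raw read counts per gene symbol, with summary entries named as HTSeq writes them, and FPKM values per gene. The submitters' processing notes name CASAVA, TopHat2, Cufflinks, HTSeq, DESeq2 and the build mm9, without roles. Annotation, multi-mapping options and strand use are not given in the sources used here. Entries that name no gene held 39.8% to 53.9% of reads and were left out, so genes in repeated families can be undercounted.

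The tests used edgeR 4.0.16 in R 4.3.3 on the counts (TMM scaling, filterByExpr, glmQLFit and glmQLFTest), with Benjamini-Hochberg adjustment over 7542 genes. KI against WT had no covariate, the first-number contrast had genotype, and the interaction had both. CPM used TMM-adjusted totals. Ly9 was compared by exact permutation. The fits were tested on simulated data with known changes. Apart from these, the simulated libraries did not differ by first number, and their spread was estimated with genotype and first number in the model. In the real data KI against WT has no covariate, so that difference adds to its spread (Sh2d1a SE 0.24, or 0.15 with the block). The shares for KI against WT are therefore likely too high. KI against WT called 33.7% of 2-fold and 81.7% of 4-fold changes, and the first-number contrast 30.9% and 84.4%. The interaction called 1.0% and 20.2%, so real changes of these sizes could be missed. Alternatives were RLE scaling, DESeq2 1.42.0, limma-voom and limma on log2(FPKM + 1) or log2(FPKM + 0.1) (limma 3.58.1), other filters, blocks, subsets, each library left out, and, chosen after seeing the data, GC-content offsets (loess of log2 CPM per library, from GENCODE vM1 transcripts).

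The members, lists, tests and naming rule were chosen with earlier results of these data known. All 8 members were described. Of each list, and of the genes within 500 kb of the receptors, genes called between first numbers or genotypes were named, and for a comparison of the signalling, contact, SAP-linked and B cell lists with no call, the 2 with the smallest p. Cd22, Ncr1, Gzma, Klrd1, Klrk1, Prf1, Cd8a, Gzmb and Pax5 were named after their values were seen. For Sh2d1a and Slamf6 the 3 nearest genes in pattern were named. Over 30 pairs of libraries of 1 genotype, no pair agreed within sampling noise (chi-square per degree of freedom 8.9 to 43.1).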

Additional observations from a re-analysis of the deposited data

Results flagged for a closer look

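For each of the 7 genes with counts, the 6 libraries of a genotype or first number were searched for 1 that stood apart from the rest. This was so in 4 of 28 sets. For normally spread values chance alone flags about 1 set in 20, but CPM from low counts need not be spread so. Each library also entered 2 sets per gene, so 4 of 28 cannot be set against that rate. Slamf1 had 49.0 CPM (102 counts) in KI 2-2, where the next KI library had 21.9 CPM. Among the libraries with first number 1, Slamf1 had 61.6 CPM (53 counts) in WT 1-2, and the next had 28.9 CPM. Ly9 had 17.9 CPM in WT 1-1, where the next WT library had 6.97 CPM, and 15.9 CPM in KI 1-2, where the next KI library had 1.92 CPM. Both Ly9 values rest on 26 counts. The other 5 genes with counts had no such library.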

How the results depend on the processing

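Between KI and WT 0 members were called under every alternative, and between first numbers 4 were called under all but WT alone (1), KI alone (3) and GC-content offsets (0). For the interaction 0 were called except without a filter (1, Slamf7). Signs of uncalled differences turned as follows. With a library left out, KI minus WT ranged from -0.50 to 0.061 for Cd84 and from -0.66 to 0.10 for Cd48, and the interaction from -0.29 to 0.88 for Slamf1 and from -0.0077 to 0.34 for Slamf6. At first number 1 alone Slamf7 was 1.06, and at first number 2 alone Sh2d1a was 0.027 and Cd48 0.039. In KI alone the first-number value of Slamf7 was -0.42. With GC-content offsets KI minus WT was 0.020 for Sh2d1a and 0.10 for Cd84, and with a replicate block added 0.0082 and 0.13, and the first-number value of Slamf1 was -0.10. The cause was not tested. The libraries share numbers, not a stated source. After each gene was centred on the mean of its genotype, libraries of different genotype were correlated. The mean r was 0.166 with the same first number and -0.165 with different ones. Centring ties these means together, so the negative one is no separate result. With both numbers alike r was 0.0828 to 0.258, and 2 of 6 WT libraries correlated best with the KI library of their own numbers. The first number as a replicate block called 0 members and 4 genes instead of 2 (Slamf1 -0.92, edgeR adjusted p 0.519). Depth limits Ly9, which did not pass the filter, and Cd244, which had no counts.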
